A study of Drosophila melanogaster with 48 samples.

Results

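The Osiris (*Osi*) genes and 10 genes for zona pellucida (ZP) domain proteins were followed through development in wild-type and *Ptth* mutant flies. They were taken by symbol: every gene named *Osi* with a number, 24 genes, and *pio*, *m*, *nyo*, *neo*, *mey*, *tyn*, *zye*, *dyl*, *cyr* and *qsm*. These are 34 of the 17558 genes in the expression table. The rule itself uses no measured value.

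The *Osi* genes are an insect-specific family whose products enter the secretory and endocytic pathways of epithelial cells that lay down cuticle, and most of them lie side by side on chromosome arm 3R. ZP domain proteins sit at the apical surface of the same cells, where they polymerise into the matrix that ties the epidermis to its cuticle and shapes denticles, bristles and wings. A fly makes a new cuticle before each molt, and pulses of the steroid hormone ecdysone set the times at which this happens. *Ptth* encodes the brain hormone that drives ecdysone synthesis in the larval prothoracic gland.

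RNA was sequenced from whole bodies in 48 libraries, 3 biological replicates of each of 2 genotypes at 8 stages, with about 15 animals pooled per replicate. The wild type is the line labelled wOB and the mutant the line labelled ptth120BC2. The study's text gives its lines other names, and it was assumed that the labelled mutant is the allele described there: a null made with TALENs, a small deletion in the last exon of *Ptth*, backcrossed to the matched wild-type background. Early third-instar larvae (L3E) were collected 72 h after egg laying in the wild type and 96 h in the mutants, and late third-instar larvae (L3L) at 96 h and 120 h. The other groups were white pupae (WP, pupal day 0), pupae at days 1 to 4 (P1, P2, P3 and P4) and adults 1 to 3 h after emerging (A0). The labels give no sex and no library batch.

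Libraries held 16712549 to 29784621 reads on genes, with a median of 21125884. Levels are FPKM, read counts scaled for the length of the gene model and for the size of the library, which can be compared between genes and between libraries. *Ptth* carried reads in both genotypes, with a mean of 0.146 FPKM in the wild type and 0.363 FPKM in the mutants at L3E, and, if the allele is the one described, a small deletion in 1 exon leaves most of the gene to be counted, so its level is no check of the labels. Of the 34 members, 31 reached 3 FPKM in at least 1 library and were tested among 12282 genes. The others, *Osi10*, *Osi16* and *Osi23*, reached at most 1.80, 1.84 and 2.53 FPKM. *Osi23*, also called *gore-tex*, is needed for the pores in the cuticle of olfactory bristles.

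In the wild type *Osi* expression came in waves, with the sum high at L3E and again at the neighbouring stages P2 and P3. The summed level of the 24 *Osi* genes was 2645, 1808 and 527 FPKM in the 3 wild-type L3E libraries. It was 4.99, 3.59 and 5.05 FPKM at L3L, and averaged 12.2 FPKM at WP. It was 15.3, 15.7 and 18.2 FPKM at P1 and 9677, 10183 and 5778 FPKM at P2. It averaged 5236 FPKM at P3, 16.3 FPKM at P4 and 9.70 FPKM at A0. The high stages did not overlap the low ones in any library. From one stage to the next the mean of the sum was 365-fold lower at L3L than at L3E, 521-fold higher at P2 than at P1 and 321-fold lower at P4 than at P3.

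**Figure D1:**
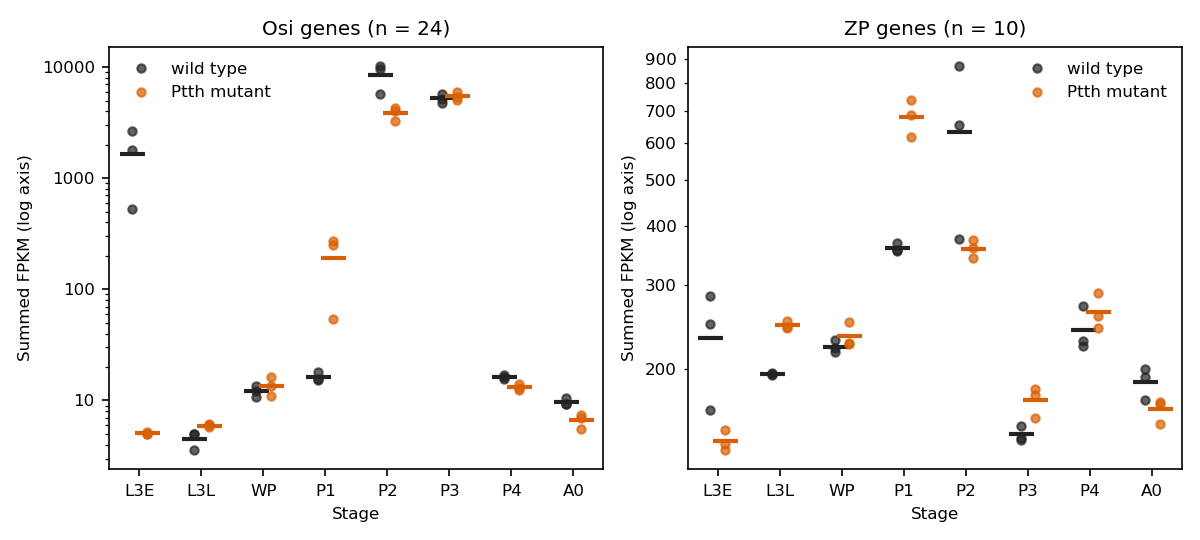
Summed FPKM of the 24 *Osi* genes and of the 10 ZP genes (log axes) at each of the 8 stages, with 1 point per library and a line through the mean of each genotype. Wild-type *Osi* sums were high at L3E, P2 and P3, mutant sums were 5.02 to 5.23 FPKM at L3E and 53.8 to 270 FPKM at P1, and the ZP sums moved over a narrower range.

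The high stages were carried by different sets of *Osi* genes, which overlapped in part. With 10 FPKM as the level at which a gene was counted as on, a cutoff set after the levels were seen, *Osi15*, *Osi18*, *Osi19* and *Osi20* were on in the wild type at L3E and P3 only. *Osi2*, *Osi6* and *Osi14* were on at L3E and P2, and *Osi7* and *Osi9* at L3E, P2 and P3. The 11 genes *Osi1*, *Osi3*, *Osi4*, *Osi5*, *Osi8*, *Osi11*, *Osi12*, *Osi17*, *Osi21*, *Osi22* and *Osi24* were on at P2 alone. *Osi10*, *Osi13*, *Osi16* and *Osi23* stayed under 10 FPKM at every stage. Means near the cutoff were 9.77 FPKM for *Osi24* and 9.48 FPKM for *Osi14* at P3.

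*Osi15*, *Osi18*, *Osi19* and *Osi20* together made up 92.5% of the summed *Osi* level at P3, 48% at L3E and 0.053% at P2. *Osi15*, one of the members that have been studied in the trachea, stood at 563, 285 and 125 FPKM at L3E and at 1524, 1782 and 1732 FPKM at P3. *Osi20* stood at 363, 212 and 81.7 FPKM at L3E and at 1184, 1431 and 1303 FPKM at P3. Both were higher in every P3 library than in any L3E library. Peak means at P3 were 1679 FPKM for *Osi15*, 1306 FPKM for *Osi20*, 1182 FPKM for *Osi19* and 678 FPKM for *Osi18*. *Osi13*, at 8.92 FPKM, was the only other *Osi* gene with its wild-type maximum there.

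At P2, when the pupa is forming adult structures, *Osi3*, *Osi12*, *Osi7* and *Osi9* held 80.9% of the sum. *Osi3* stood at 2242, 2648 and 1326 FPKM and *Osi12* at 2481, 2017 and 1414 FPKM. *Osi7* stood at 2115, 2108 and 1472 FPKM and *Osi9* at 1024, 1373 and 532 FPKM. Replicate 3 was the lowest for all 4 genes, and *Osi3*, *Osi12* and *Osi7* overlapped in their libraries. The remaining genes with a wild-type maximum at P2 had means of 322 FPKM for *Osi4*, 321 FPKM for *Osi1*, 251 FPKM for *Osi8*, 152 FPKM for *Osi22*, 112 FPKM for *Osi21* and 89.2 FPKM for *Osi11*. *Osi24* averaged 33.2 FPKM, *Osi17* 22.2 FPKM, *Osi5* 13.7 FPKM, *Osi10* 1.61 FPKM and *Osi23* 0.994 FPKM. *Osi21*, also called *diehard4*, acts in endolysosomal trafficking in photoreceptors.

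In the larval wave *Osi6* and *Osi15* had nearly the same mean, 325 and 324 FPKM at L3E. *Osi6* stood at 505, 372 and 97.1 FPKM there and was below *Osi15* in replicates 1 and 3. *Osi14* averaged 204 FPKM and *Osi2* 81.0 FPKM there, their highest wild-type stage. *Osi16* also had its highest mean at L3E, at 1.08 FPKM. All of these peaked at L3E but *Osi15*, which peaked at P3. *Osi6* was the highest *Osi* gene at WP, at 8.57, 6.52 and 7.57 FPKM. *Osi2* was the highest at P4, with 7.33, 5.71 and 5.80 FPKM, and at A0, with 4.46, 4.82 and 5.58 FPKM. *Osi14* led at L3L with 1.07, 0.988 and 1.61 FPKM. Between the waves every *Osi* gene was thus under 10 FPKM in the wild type.

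The ZP genes kept no common schedule. *qsm*, which takes part in the light response of the circadian clock, and *pio*, which anchors the epidermis to its matrix, were at 10 FPKM or more at all 8 wild-type stages. Both peaked at P4, with means of 122 FPKM for *qsm* and 111 FPKM for *pio*. *qsm* stood at 130, 117 and 118 FPKM at P4, at 85.3, 103 and 101 FPKM at A0 and at 104, 96.9 and 92.3 FPKM at WP, so that WP and A0 overlapped. *pio* stood at 48.8, 59.5 and 56.4 FPKM at L3E and at 67.6, 67.0 and 66.9 FPKM at L3L. Its lowest stage was P2, with 14.6 to 22.6 FPKM and a mean of 18.7 FPKM, followed by P3, at 39.9, 36.3 and 37.8 FPKM. Its P4 libraries at 132, 96.4 and 103 FPKM all lay above its P1 libraries at 93.4, 92.1 and 93.1 FPKM.

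*dyl*, which shapes bristles, was on at L3E, P2 and P3, the same stages as *Osi7* and *Osi9*, and peaked at P2 with 291, 349 and 186 FPKM. *m*, which is needed for flat wing cells, was on at P2 alone, with a mean of 81.3 FPKM. *nyo*, *mey*, *neo* and *tyn*, which shape embryonic denticles, were all on at P1 and P2. *neo*, *tyn* and *mey* were also on at WP, and *neo* and *tyn* at L3E, with means of 32.2 and 12.4 FPKM. Their highest wild-type means were 40.8 FPKM for *nyo* and 55.3 FPKM for *mey* at P2, and 86.9 FPKM for *neo* and 64.9 FPKM for *tyn* at P1. *zye*, of the same denticle group, peaked at L3L with 55.4, 58.2 and 57.0 FPKM. *cyr* reached 9.80 FPKM at P2.

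**Figure D2:**
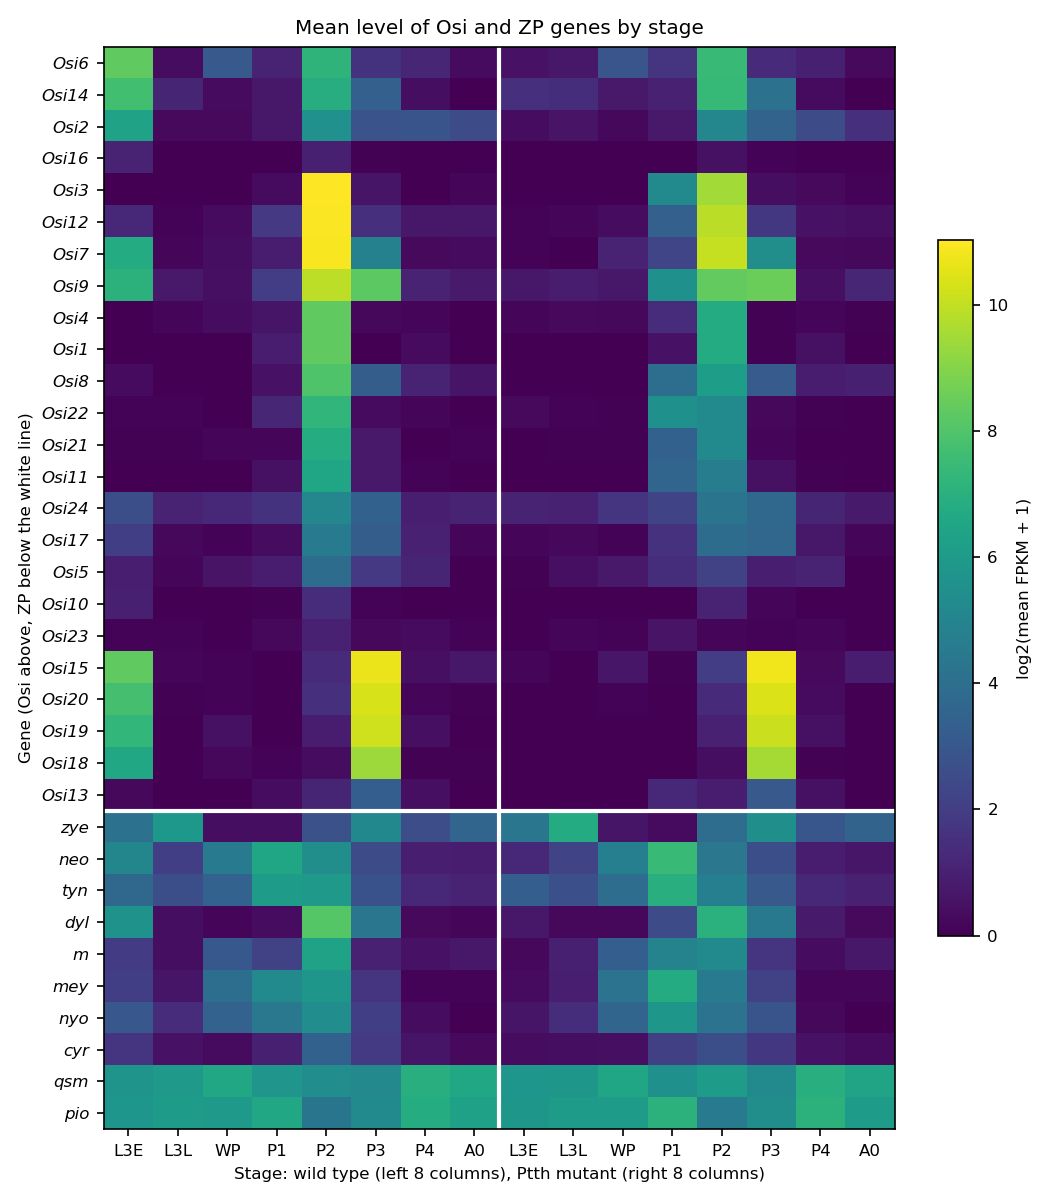
Mean FPKM of the 34 members (colour, log scale) at the 8 stages, wild type on the left and *Ptth* mutants on the right, with the *Osi* genes above the ZP genes. Wild-type *Osi* genes form blocks at L3E, P2 and P3, mutant *Osi* means at L3E are at most 1.85 FPKM, and *qsm* and *pio* are filled at all 8 wild-type stages.

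Changes between neighbouring wild-type stages were tested with limma on log2(FPKM + 1), and a gene was called where it changed by more than 2-fold with an adjusted p (Benjamini-Hochberg over all tested genes) below 0.05. The p-values measure the spread between pools of animals, and neighbouring steps share a stage. From L3E to L3L 19 of the 31 members fell, where 10.6% of all tested genes fell, and 1 rose, where 9.43% rose. The member that rose was *zye* (log2 change 1.90), and the deepest falls were *Osi15* (-7.90), *Osi6* (-7.70) and *Osi20* (-7.49). From L3L to WP 5 members rose and 1 fell, against 16.8% and 15.3% of all genes. *mey* (3.38), *Osi6* (2.74), *m* (2.62), *neo* (2.48) and *nyo* (2.03) rose and *zye* fell (-5.46). From WP to P1 6 rose and 1 fell, against 5.94% and 10.2%.

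From P1 to P2 22 of the 31 members rose, where 11.5% of all genes rose, and 2 fell, where 4% fell. *Osi3* rose by 10.63 ± 0.19 on the log2 scale (SE, limma, adjusted p = 3.6e-20), from 0.249, 0.228 and 0.293 FPKM at P1. *Osi7* rose by 10.03 ± 0.38 and *Osi12* by 9.07 ± 0.15. Among the ZP genes *dyl* rose by 7.72 ± 0.35 (limma, adjusted p = 1.4e-13) and *m* by 4.10. The 2 that fell were *pio* (-2.27) and *neo* (-1.48).

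From P2 to P3 most members of both families fell, 16 of 21 tested *Osi* genes and 7 of 10 ZP genes. The members that rose were 6, where 10.5% of all genes rose, and those that fell were 23, where 4.88% fell. *Osi19* (9.46), *Osi15* (9.44 ± 0.33, SE, limma, adjusted p = 2.1e-15), *Osi18* (9.08), *Osi20* (8.88), *zye* (2.44) and *Osi13* (2.25) rose. *Osi3* (-10.38) and *Osi12* (-9.45) returned to near their P1 levels, while *Osi9* fell by only 1.59. From P3 to P4 18 members fell, with *Osi15* (-10.27) and *Osi20* (-10.22) the deepest, where 7.26% of all genes fell. *qsm* (1.77) and *pio* (1.51) rose, where 12.3% of all genes did. From P4 to A0 1 member rose and 1 fell, against 2.73% and 19.7% of all genes.

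Most *Osi* genes share 1 stretch of the genome. On chromosome arm 3R of the BDGP6 assembly, 21 of the 24 *Osi* genes lie within 6173549 to 6341424, a stretch of 167876 bases from *Osi1* to *Osi20*, and 19 of them are on the plus strand. *Osi15*, *Osi18*, *Osi19* and *Osi20* lie towards the *Osi20* end, with *Osi16* and *Osi17*, which did not share their stages, between *Osi15* and *Osi18*. Outside the stretch are *Osi22* (3R, 13290629 to 13291846), *Osi23* (3R, 30444076 to 30445046) and *Osi21* (chromosome arm 2L, 11284327 to 11285706), and *Osi21* and *Osi22* were on at P2 alone as were their 9 relatives inside it. The ZP genes *mey* (31499235 to 31506992) and *nyo* (31543032 to 31566165) are close together on 3R. None of the 31 members whose coordinates matched the newer annotation shares exon sequence with another gene.

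At L3E the *Osi* genes of the larval wave were at or near 0 in the *Ptth* mutants. The summed *Osi* level was 5.02, 5.04 and 5.23 FPKM in the mutants against 2645, 1808 and 527 FPKM in the wild type, 326-fold lower by the means. Mutant larvae of this stage were 24 h older by the clock than the wild-type larvae. In limma fits of the 6 libraries of the stage, 17 of the 31 members fell (11 *Osi*, 6 ZP), where 6.78% of all tested genes fell, and 0 rose, where 10.4% of all genes rose. The libraries did not overlap for any of the 17. Counting groups that did not overlap, whatever the size of the difference, 19 members were lower and 1 higher in the mutants, where 23.6% and 30.4% of all genes were. The median log2 difference was -1.38 over the members and 0.02 over all genes. In whole-body RNA fewer cells of a type and less RNA per cell cannot be told apart.

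*Osi15* had 0, 0.258 and 0.0564 FPKM in the mutant libraries, against 125 to 563 FPKM in the wild type. Its log2 difference was -7.96 ± 0.54 (SE, limma, adjusted p = 0.00042). *Osi20* had no read in any mutant library and was at least 1158-fold lower, against a floor of 3 reads in 1 library. Its fitted difference was -7.54 ± 0.54 (limma, adjusted p = 0.00047). *Osi19*, at 235, 187 and 46.8 FPKM in the wild type and without a read in the mutants, was at least 744-fold lower on the same floor (limma, adjusted p = 0.00077). The 3 genes were thus at or near the detection limit in every mutant library.

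*Osi6* had 0.572, 0.302 and 0.490 FPKM in the mutants and was 714-fold lower by the means, with a log2 difference of -7.51 ± 0.63 (limma, adjusted p = 0.00065). *Osi7* stood at 136, 159 and 28.5 FPKM in the wild type and at 0.0262, 0.0592 and 0.129 FPKM in the mutants. Its log2 difference was -6.34 ± 0.67 (limma, adjusted p = 0.0013). Every wild-type library was far above every mutant library for both. *Osi18* (log2 -6.25), *Osi9* (-6.02), *Osi14* (-5.83) and *Osi2* (-5.65) fell as well, as did the low *Osi17* (-1.79) and *Osi12* (-1.15). All 9 *Osi* genes that were on at wild-type L3E were among those that fell. They were picked by their level in these same wild-type libraries, which favours a fall.

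Among the ZP genes, *dyl* stood at 87.6, 47.8 and 15.2 FPKM in the wild type and at 0.494, 0.862 and 0.620 FPKM in the mutants. It was 76.2-fold lower by the means, with a log2 difference of -4.64 ± 0.62 (limma, adjusted p = 0.0029). *neo* (-3.74), *nyo* (-2.27), *mey* (-1.71), *m* (-1.67) and *cyr* (-1.27) fell too. *qsm*, *pio*, *tyn* and *zye* did not pass: *pio* averaged 54.9 FPKM in the wild type and 55.8 FPKM in the mutants, and *qsm* 50.9 and 54.1 FPKM.

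**Figure D3:**
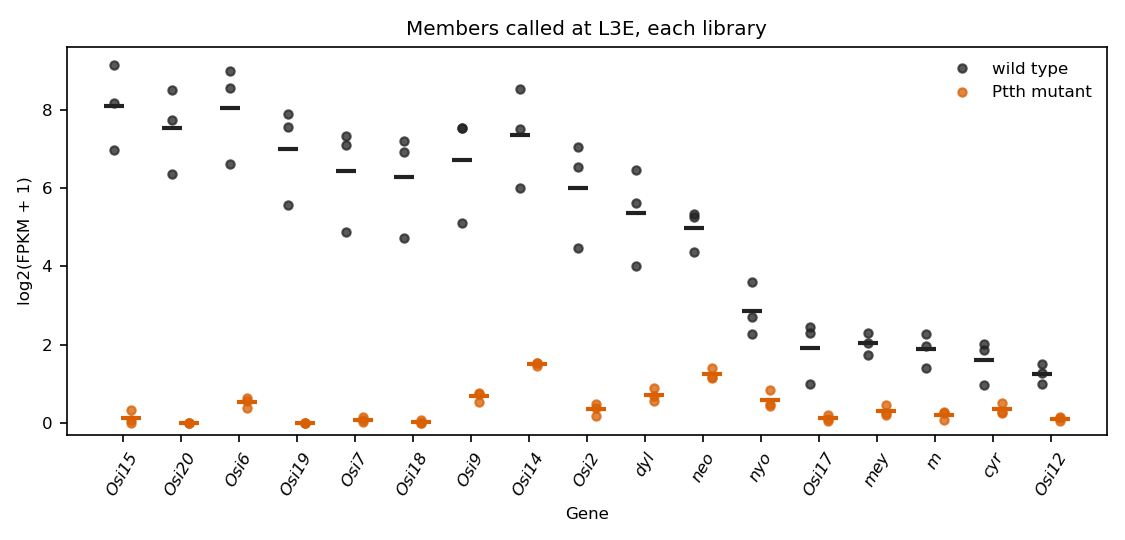
Levels at L3E, as log2(FPKM + 1), of the 17 members called at that stage, with 1 point per library for each genotype. Wild-type and mutant libraries are separated for all 17 members that fell, and wild-type replicate 3 is the lowest wild-type point of each *Osi* gene that was on.

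The wild-type libraries of this stage were uneven. All 9 *Osi* genes at 10 FPKM or more were lowest in replicate 3, with a ratio of highest to lowest library of 4.44 to 6.19 and a median of 5.50. Over all 5436 genes at that level the median ratio was 1.25. Beside this, summed larval fat body markers were 775 to 2210 FPKM in the wild type, with replicate 3 the highest, and 19909 to 21581 FPKM in the mutants. Salivary glue genes summed to 1.97 to 2.90 FPKM against 82.7 to 119 FPKM, and testis markers to 3.45 to 5.40 FPKM against 56.2 to 80.6 FPKM. Epidermal and tracheal markers (*Gasp*, *serp*, *verm*, *kkv* and *knk*) summed to 2381, 1982 and 1585 FPKM in the wild type and to 1248 to 1343 FPKM in the mutants. Their part in the *Osi* result was not tested, and larval age in hours and genotype cannot be told apart at this stage. With any 1 library left out, 15 to 19 members were called.

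Lists of other cuticle and ecdysone genes were counted at L3E as well, where 6.78% of all tested genes fell and 10.4% rose. Of 7 genes for tanning and pigment of the cuticle 4 fell, namely *y* (-4.40), *e* (-2.18), *ple* (-2.11) and *Ddc* (-2.03), which act in melanin and catecholamine metabolism. Of 14 genes for chitin synthesis and its matrix, which include the 5 epidermal and tracheal markers, 1 fell, the chitinase gene *Cht5* (-4.06). The ZP genes *nompA* (-1.26) and *dy* (-1.15) fell, 2 of 3 further ZP genes tested, as did 1 of 8 genes of trichome formation. In lists this short, 1 gene of 14 or of 8 is little different from the share of all genes. Of 12 tested ecdysone response genes 3 fell, *ftz-f1* (-1.66), *Hr4* (-1.56) and *Eip78C* (-1.49), and *br* rose (1.38). All 4 fat body, 4 glue and 4 testis markers rose.

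Larvae of the same clock age were also compared, mutant L3E against wild-type L3L at 96 h. Only *zye* fell (log2 -1.57 ± 0.19, SE, limma, adjusted p = 0.0053), which makes 1 of 31 members where 1.22% of all genes fell, and 0 members rose, where 2.59% did. *zye* stood at 14.9, 16.7 and 25.3 FPKM in the mutants and at 55.4, 58.2 and 57.0 FPKM in the wild type, without overlap. The wild-type libraries of this comparison are also those of the L3L comparison. Summed *Osi* levels averaged 5.10 FPKM in these mutants and 4.54 FPKM in this wild type. Levels this low leave little room for a call of an *Osi* gene on the tested scale. The larvae also differed in stage label. All 4 glue genes were called lower in the mutants (log2 -4.80 to -6.10). So were 1 of 4 fat body markers, *Fbp1* (-3.64), and 3 of 12 ecdysone response genes, *br*, *Eip74EF* and *EcR*.

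The fall from L3E to L3L differed between genotypes. This comparison uses the libraries of the L3E and L3L comparisons. With 0 members called at L3L, it largely restates the difference at L3E. In 1 limma fit of all 48 libraries, the change in the mutants was the higher for 19 members and the lower for 0, where 6.43% and 6.72% of all genes differed in these directions. The mutant change exceeded the wild-type change by 7.86 ± 0.40 for *Osi6* (SE, limma, adjusted p = 3.2e-18) and by 7.81 ± 0.39 for *Osi15* (limma, adjusted p = 1.2e-18). It did so by 4.47 for *dyl* and 3.99 for *neo*. Within the mutants 2 members rose from L3E to L3L and 0 fell, where 7.59% and 8.18% of all genes did so.

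At L3L and WP the summed *Osi* level was 1.31-fold and 1.11-fold higher in the mutants, and the summed ZP level 1.27-fold and 1.05-fold. At each stage 0 of the 31 members were called by limma, where 10.8% of all genes were at L3L and 1.56% at WP. At an unadjusted p under 0.05 there were 8 members at L3L and 13 at WP, and limma-voom on recovered reads called 3 and 4. The share of all genes under either rule was not computed, so these counts have no background to be read against. The summed *Osi* level at L3L was 6.09, 5.74 and 5.99 FPKM in the mutants. *zye* stood at 108, 116 and 107 FPKM in mutant L3L larvae, above all wild-type libraries but within 2-fold of them on the tested scale. From L3L to WP 7 members rose and 1 fell in the mutants, against 6.62% and 13.1% of all genes.

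At P1 both families were higher in the mutants. Their summed *Osi* level was 252, 270 and 53.8 FPKM against 15.3, 15.7 and 18.2 FPKM in the wild type, 11.7-fold higher by the means. The summed ZP level was 740, 685 and 617 FPKM against 354, 356 and 369 FPKM, 1.89-fold higher. Neither pair of groups overlapped. Of the 31 members 9 rose (4 *Osi*, 5 ZP), where 1.51% of all genes rose, and 0 fell, where 0.871% fell. The median log2 difference was 0.90 over the members and 0.03 over all genes.

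The largest called differences were those of *Osi22* and *Osi9*. *Osi22* stood at 0.844, 0.952 and 1.95 FPKM in the wild type and at 66.8, 59.7 and 10.2 FPKM in the mutants, a 36.5-fold difference of means (log2 4.03 ± 0.74, SE, limma, adjusted p = 0.013). *Osi9* stood at 2.80, 3.08 and 3.01 FPKM against 55.0, 61.6 and 17.7 FPKM, 15.1-fold (log2 3.35 ± 0.48, limma, adjusted p = 0.0068). Mutant replicate 3 was the lowest mutant library for both and still above the wild type. *Osi12* stood at 2.51, 2.40 and 2.81 FPKM against 9.88, 10.7 and 7.89 FPKM (log2 1.55 ± 0.12, limma, adjusted p = 0.0016). *Osi17* (1.18) rose as well.

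Of the ZP genes, *m* stood at 3.47, 3.20 and 3.95 FPKM in the wild type and at 35.9, 30.4 and 22.9 FPKM in the mutants, 8.41-fold higher (log2 2.74 ± 0.17, limma, adjusted p = 0.00098). *mey* stood at 35.0, 36.1 and 40.0 FPKM against 124, 108 and 95.5 FPKM (log2 1.53 ± 0.11, limma, adjusted p = 0.0012). *neo* stood at 84.5, 84.4 and 91.7 FPKM against 190, 180 and 163 FPKM (log2 1.02 ± 0.07, limma, adjusted p = 0.0012). The mutant libraries were above the wild type in all 3 replicates of each gene. *nyo* (1.39) and *cyr* (1.06) rose too. *tyn* (0.90) and *pio* (0.51) had an adjusted p under 0.05 below the 2-fold limit.

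*Osi3*, *Osi8*, *Osi21* and *Osi11* had larger differences than most called genes but uneven mutant libraries, and did not pass. *Osi3* stood at 51.6, 58.8 and 0.963 FPKM in the mutants against 0.228 to 0.293 FPKM in the wild type (log2 3.87, limma, adjusted p = 0.074). *Osi8* stood at 19.4, 23.7 and 1.02 FPKM against 0.302 to 0.535 FPKM (log2 2.81, limma, adjusted p = 0.073). Mutant replicate 3 was close to the wild type for both. *Osi21* (2.71), *Osi11* (2.63), *dyl* (1.85) and *Osi7* (1.27) were also above 2-fold without passing, and their groups did not overlap. All 5 *Osi* genes at 10 FPKM or more were lowest in mutant replicate 3, with a median ratio of highest to lowest of 15.5, where all genes had 1.10. Without that library 14 members were called, and without any other single library 7 to 9.

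Mutant P1 levels stood in different places relative to the wild-type course. *pio*, *neo*, *tyn*, *mey*, *nyo* and *Osi13* were higher in mutant P1 than in either wild-type P1 or wild-type P2, by their means. *pio*, for example, stood at 134, 131 and 133 FPKM. The means of most *Osi* genes lay between those of wild-type P1 and P2. That range is wide, 0.257 to 2072 FPKM for *Osi3*, so almost any rise falls within it. *Osi2*, for example, lay in it at 0.700 FPKM against 0.643 FPKM at wild-type P1. The share of all genes in either place was not computed. Counting groups that did not overlap, 22 members were higher and 1 lower in the mutants, where 29.7% and 23.7% of all genes were.

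Beside this, epidermal and tracheal markers summed to 97.3 to 109 FPKM in the wild type and 100 to 111 FPKM in the mutants at P1. Muscle markers summed to 149 to 159 FPKM against 223 to 238 FPKM, with *Mhc* (2.40) and *up* (1.45) called higher, and testis markers to 274 to 441 FPKM against 490 to 703 FPKM. The part of these in the result was not tested. Among the lists of related genes, 3 of 8 trichome genes rose, *sha* (2.36), *f* (1.63) and *mwh* (1.20), where 1.51% of all genes rose. So did 4 of 12 ecdysone response genes, *Eip78C* (2.21), *Hr4* (1.62), *Hr46* (1.53) and *Blimp-1* (1.13), and 1 of 7 tanning genes, *e* (2.29). None of the 14 chitin genes, which include the 5 epidermal and tracheal markers, or of the other 3 ZP genes was called by limma.

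At P2 the order of the genotypes was the opposite. The summed *Osi* level was 3278, 4316 and 4007 FPKM in the mutants against 9677, 10183 and 5778 FPKM in the wild type, 2.21-fold lower, and the summed ZP level 343, 360 and 373 FPKM against 652, 870 and 376 FPKM, 1.76-fold lower. Wild-type replicate 3 came closest to the mutants in both. Of the 31 members 4 fell, all *Osi*, where 0.594% of all genes fell, and 1 ZP gene rose, where 0.578% rose. The median log2 difference was -0.83 over the members and 0.01 over all genes.

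*Osi8* stood at 258, 354 and 140 FPKM in the wild type and at 59.5, 78.7 and 67.8 FPKM in the mutants (log2 -1.76 ± 0.35, SE, limma, adjusted p = 0.042). *Osi5* stood at 14.2, 18.1 and 8.71 FPKM against 3.09, 4.35 and 3.25 FPKM (log2 -1.64 ± 0.27, limma, adjusted p = 0.031). *Osi1* stood at 399, 354 and 210 FPKM against 85.5, 110 and 131 FPKM (log2 -1.52 ± 0.29, limma, adjusted p = 0.038). The groups did not overlap for any of the 3 genes, with fold differences of means of 3.65, 3.85 and 2.95. *Osi3* stood at 635, 812 and 715 FPKM in the mutants, 2.87-fold below the wild type and without overlap (log2 -1.47 ± 0.28, limma, adjusted p = 0.039). *zye* was the only member called higher, at 6.47, 3.67 and 6.84 FPKM in the wild type and 14.6, 13.2 and 15.0 FPKM in the mutants (log2 1.23 ± 0.21, limma, adjusted p = 0.034). By their means 8 members were higher and 23 lower in the mutants. Among the higher were *Osi6*, at 178 against 141 FPKM in the wild type, *Osi14*, at 165 against 117 FPKM, and *qsm*, at 65.3 against 40.8 FPKM.

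By the ratio of means a further 12 members were more than 2-fold lower without passing. Not all of them were so on the tested log2 scale, and the share of all genes was not computed. Among them were *Osi12* at 724, 1057 and 1048 FPKM in the mutants (log2 -1.05, limma, adjusted p = 0.066) and *dyl* at 116, 141 and 130 FPKM (-1.05, limma, adjusted p = 0.057). The calls at P2 depended on the model and on which libraries were used. With a replicate block in the fit 0 members were called. No member was called when any library other than wild-type replicate 3 was left out, and 9 were called without that one. Counting groups that did not overlap, 16 members were lower and 4 higher in the mutants, where 15.2% and 19.5% of all genes were. Of 16 *Osi* genes at 10 FPKM or more, 13 were lowest in wild-type replicate 3. Epidermal and tracheal markers summed to 1415 to 2063 FPKM in the wild type and 2031 to 2231 FPKM in the mutants. Muscle markers summed to 774 to 1094 FPKM against 1553 to 1775 FPKM, and their part in the result was not tested.

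**Figure D4:**
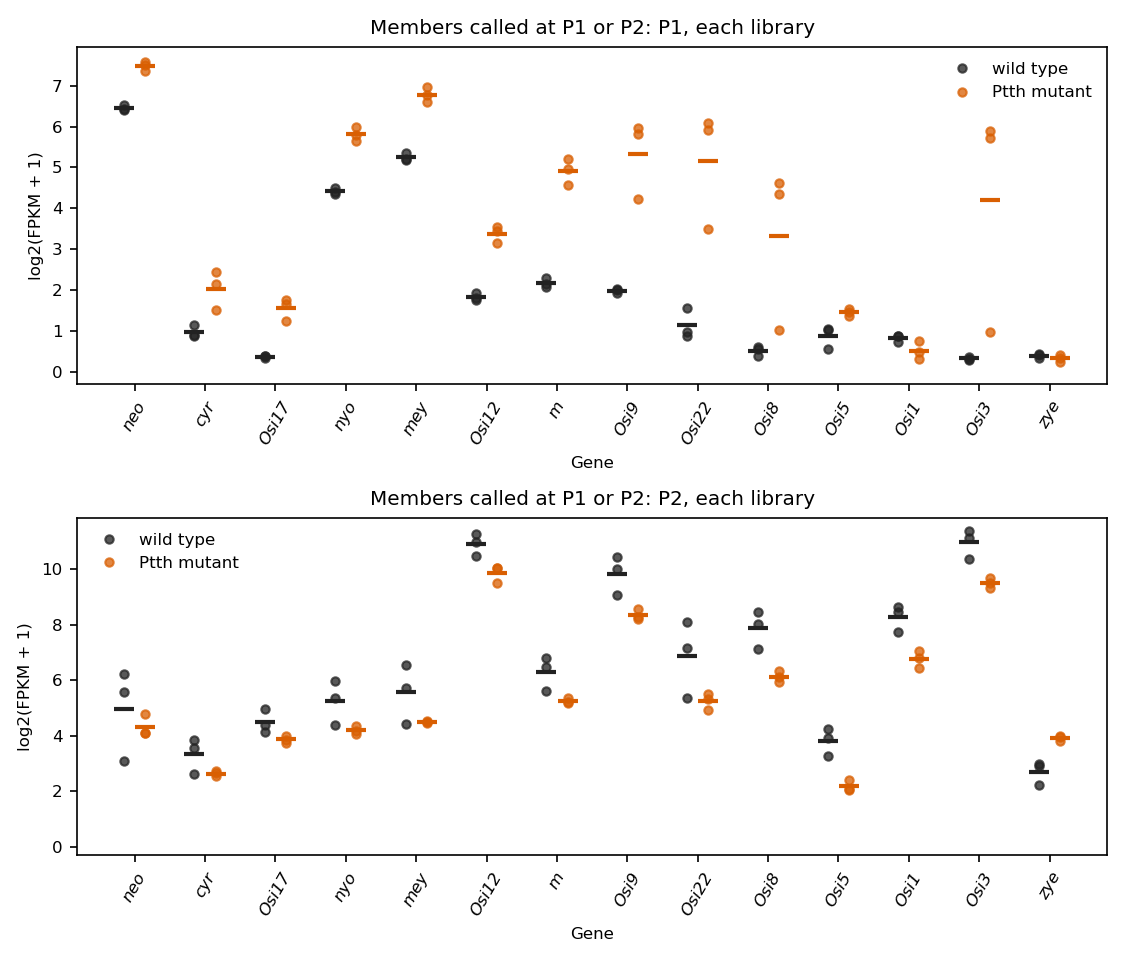
Levels at P1 and at P2, as log2(FPKM + 1), of the members called at P1 or P2, with 1 point per library for each genotype. At P1 the mutant points lie above the wild type for the 9 members that rose, and at P2 they lie below it for *Osi8*, *Osi5*, *Osi1* and *Osi3* and above it for *zye*.

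The rise from P1 to P2 was smaller in the mutants for most members. This comparison was chosen after the levels were seen and uses the libraries of both preceding ones. In 1 limma fit of all 48 libraries, 21 members had a lower change in the mutants, where 1.53% of all genes did, and 1, *zye* (1.29), a higher one, where 1.48% did. *Osi22* rose by 5.74 on the log2 scale in the wild type, and its log2 change in the mutants was 0.08 (difference -5.65 ± 0.58, SE, limma, adjusted p = 5.4e-09). *Osi3* rose by 10.63 in the wild type and by 5.29 in the mutants (difference -5.34 ± 0.80, limma, adjusted p = 7.5e-06). *m* had a log2 change of 4.10 in the wild type and 0.33 in the mutants. *mey* (0.33 and -2.28), *nyo* (0.83 and -1.62) and *tyn* (-0.30 and -2.17) fell in the mutants.

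The steps within the mutants were as follows. From WP to P1 18 members rose and 1 fell in the mutants, against 12.8% and 9.88% of all genes. From P1 to P2 18 rose and 5 fell, against 10.7% and 2.61%. By stage of highest mean, 13 tested *Osi* genes peaked at P2 and 3 at L3E in the wild type. In the mutants 14 peaked at P2 and 1, *Osi22*, at P1, with 0 at L3E. Of all tested genes 6.42% peaked at P2 in the wild type and 9.87% in the mutants. At L3E 18.97% of all tested genes peaked in the wild type and 20.16% in the mutants. Of the ZP genes 2 peaked at P1 in the wild type and 5 in the mutants. The share of all tested genes with a peak at P1 was also higher in the mutants, 18.34% against 12.64%.

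From P3 onward the summed levels of the families differed by 1.04-fold to 1.46-fold between the genotypes. *Osi15* stood at 1764, 1665 and 1774 FPKM in mutant P3 pupae and *Osi20* at 1338, 1271 and 1491 FPKM, each overlapping the wild type. The summed *Osi* level averaged 5467 FPKM in the mutants and 5236 FPKM in the wild type, and the 4 P3 genes made up 91.1% of the mutant sum. At P3, P4 and A0 0 members were called by limma, where 3.12%, 1.03% and 0.448% of all genes were. At an unadjusted p under 0.05 there were 12, 8 and 4 members, and limma-voom called 3, 1 and 0, again without a computed share of all genes. At A0 *Osi2* stood at 2.70, 1.99 and 0.886 FPKM in the mutants, under every wild-type library (log2 -1.11, limma, adjusted p = 0.15). From P2 to P3 6 mutant members rose and 19 fell, against 8.28% and 3.8% of all genes, and from P3 to P4 2 rose and 20 fell, against 11.4% and 7.69%. From P4 to A0 0 rose and 2 fell in the mutants, against 3.62% and 20.1%.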

How the data were processed

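The authors deposited 1 table of FPKM for 17558 genes in 48 libraries of poly(A) RNA, and 0 sample columns were left unmapped. The submitters' processing notes list HISAT2 2.0.5, featureCounts 1.5.0-p3 and BDGP6, while the study's methods name Fastx, STAR, htseq-count and DESeq2. Which of these made the FPKM values is not given in the sources used here. Each value times gene length and a library size gave whole reads (100% within 0.001 read), with sizes of 0.630 to 1.51 times the library total, so the deposited values carry a scaling for composition. Chi-square per gene between replicates was 4.72 to 82.8, above sampling noise.

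Because the unit is FPKM, the study's count test was replaced by limma 3.58.1 (R 4.3.3, trend, two-sided) on log2(FPKM + 1), per stage for genotypes, per genotype for steps and over all 48 libraries for differences of changes. The 12282 genes with at least 3 FPKM in 1 library were adjusted together (Benjamini-Hochberg), and genes were called at an adjusted p under 0.05 and above 2-fold. The fits were tested on simulated data with 200 changed genes. Folds are ratios of mean FPKM. log2 values understate changes of low genes.

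Members were taken by symbol, but the set and the lists were chosen with earlier results of these data known. Library values are given for up to 5 called members per genotype comparison with the largest differences, for *Osi3*, *Osi12*, *dyl* and *qsm*, and for the highest *Osi* and ZP gene of each wild-type stage, and a few others were chosen after their values were seen. The alternatives were pseudocount 0.1, no filter, a filter of 3 libraries, quantile normalization, limma-voom on recovered reads, 1.5-fold, 1 fit of all libraries, a replicate block and leaving out each library. Of the gene identifiers, 17252 were found in Ensembl release 115, 16977 at the same coordinates, and 31 of the 34 members, without *Osi21*, *Osi10* and *tyn*, matched. Coordinates are those of the deposited table. Tables were handled with pandas 2.3.3 (Python 3.11.15) and plotted with matplotlib 3.10.9.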

Additional observations from a re-analysis of the deposited data

Results flagged for a closer look

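The genotypes differed in the change from L3E to L3L for 19 members by the interaction term of limma, which is not independent of the L3E comparison. The mutant change minus the wild-type change was 7.86 for *Osi6*, 7.81 for *Osi15*, 7.51 for *Osi20*, 6.98 for *Osi19* and 6.28 for *Osi18* on the log2 scale. Leaving out 1 library at a time gave 17 to 20 members.

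They also differed in the change from P1 to P2 for 22 members. The difference was -5.65 for *Osi22*, -5.34 for *Osi3*, -4.83 for *Osi9*, -4.57 for *Osi8* and -4.23 for *Osi11*. Leaving out 1 library at a time gave 19 to 22 members.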

How the results depend on the processing

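No member called in a genotype comparison changed direction under any alternative. Of the values of these members under alternatives, 395 kept their call and 53 lost it. The 1.5-fold limit is looser than the main limit on the same fit, so no call could be lost under it. Members named for stage steps and for differences of changes were not followed singly. The number of members called at L3L (0) was 1 with a pseudocount of 0.1, quantile normalization or a 1.5-fold limit and 3 with limma-voom. At WP (0) it was 4 with a pseudocount of 0.1 or limma-voom and 1 at 1.5-fold. At P1 (9) it was 15 in 1 fit of all 48 libraries. At P2 (5) it was 2 with no filter, 9 with limma-voom, 13 in the fit of all libraries and 0 with a replicate block. At P3 (0) it was 1 with a pseudocount of 0.1 or quantile normalization and 3 with limma-voom or at 1.5-fold. At P4 (0) it was 1 with a pseudocount of 0.1 or limma-voom, and at A0 (0) 1 in the fit of all libraries. At 96 h (1) it was 3 with a pseudocount of 0.1 or limma-voom and 4 at 1.5-fold.

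For the wild-type steps, a pseudocount of 0.1 gave 11 members from L3L to WP (6), 19 from WP to P1 (7) and 12 from P4 to A0 (2). Limma-voom gave 12 from WP to P1 and 5 from P4 to A0, and quantile normalization 9 from P4 to A0. In the mutants a pseudocount of 0.1 gave 7 from L3E to L3L (2) and 14 from P4 to A0 (2), limma-voom gave 6 and 12, and quantile normalization gave 1 from L3E to L3L. The causes were not tested.

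Leaving out 1 library at a time gave 15 to 19 members at L3E, 0 to 0 at L3L, WP, P4 and A0, 7 to 14 at P1, 0 to 9 at P2, 0 to 1 at P3 (1 without mutant replicate 3) and 1 to 1 at 96 h. At P2 each *Osi* call held in 1 of 6 such fits and *zye* in 0. At L3E *Osi17* held in 2 and *cyr* in 3 of 6, and at P1 *cyr* in 2. Wild-type steps gave 18 to 21, 6 to 6, 6 to 8, 23 to 24, 29 to 30, 20 to 20 and 1 to 2 members in stage order, and mutant steps 1 to 2, 7 to 8, 18 to 21, 22 to 24, 25 to 25, 22 to 23 and 1 to 3. The step from P4 to A0 fell to 1 member without wild-type P4 replicate 3, A0 replicate 1 or A0 replicate 2, and without mutant A0 replicate 3, and the mutant step from L3E to L3L without mutant L3E replicate 1 or 2 or L3L replicate 2.

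The labels do not say whether replicate numbers pair the samples. Over all stages 6 of 24 same-numbered pairs had a correlation of deviations over 0.1 (range -0.43 to 0.47). Among these were P1 replicate 3 at 0.47 and P2 replicates 2 and 1 at 0.39 and 0.27. The replicate block left the other counts within 1.5 times. With 3 pools per group, a difference far smaller in 1 library than in the others, as for *Osi3* at P1, did not pass, and the 3 members under 3 FPKM were not tested.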

Other observations

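The stretch of 3R that holds the 21 clustered *Osi* genes also holds 7 other genes, of which 3 were tested. All 3 had their highest wild-type mean at L3E, and none at P2 or P3. *CG15597* averaged 1640 FPKM in the wild type at L3E and 820 FPKM at L3L, and 2105 FPKM and 200 FPKM in the mutants. *CG46026* reached 2.63 FPKM and *CG31560* 2.08 FPKM at wild-type L3E, and both had a mean of 0 FPKM at mutant L3E. *CG15597* was thus high at L3E in both genotypes. The nearest *Osi* genes on its sides, *Osi12* and *Osi13*, were low there in the wild type too, at 1.42 and 0.188 FPKM.

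Within the ZP group, *zye* moved in the other direction from most members at several steps. It rose from L3E to L3L while 19 members fell in the wild type, fell from L3L to WP while *mey*, *m*, *neo* and *nyo* rose, and was the only member with a higher mutant level called at P2.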
